A study of Arabidopsis thaliana with 58 samples.

Results

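The senescence-associated genes and the NAC regulators of leaf senescence were followed in *Arabidopsis thaliana* plants deprived of magnesium (Mg). The set was given as a list of loci, with earlier results of these data known when it was drawn up. It held 10 of the 23898 loci listed in at least 1 of the 7 deposited tables, namely 6 senescence-associated genes (SAG12, SAG13, SAG14, SAG20, SAG21 and SAG29) and 4 genes of NAC transcription factors (ORE1, NAP, ORS1 and JUB1).

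Columbia-0 plants were grown hydroponically and were treated from 10 days after germination. Mg-deficient plants received 0 mM Mg, with the magnesium sulphate of the solution replaced by sodium sulphate, and control plants received 1.5 mM Mg. RNA was sequenced from mature leaves (the first 2 rosette leaves) and expanding leaves (the next 2) on days 3, 5 and 8, when plants were 13, 15 and 18 days old, and from roots on day 3. The 58 libraries comprised, for Mg-deficient and control mature leaves, 3 and 4 replicates (day 3), 3 and 5 (day 5) and 4 and 4 (day 8), for Mg-deficient and control expanding leaves 4 and 5 (day 3), 3 and 5 (day 5) and 5 and 4 (day 8), and for Mg-deficient and control roots 3 and 6. Each replicate was a composite of tissue from 2 or 3 plants, libraries of different tissues can share plants, and sodium supply differed between the treatments together with Mg.

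Leaf senescence is the last, ordered phase of leaf life, in which chlorophyll, protein and membranes are broken down and their nutrients are exported to growing parts. The SAG genes were named for transcripts that accumulate in senescing leaves, but several of them also respond to pathogens, wounding and oxidative stress, so that a rise of such genes is not specific to ageing. NAC proteins are plant transcription factors: ORE1, ORS1 and NAP promote leaf senescence, whereas JUB1 delays it and is induced by hydrogen peroxide.

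Depth and complexity differed between libraries. Libraries held between 545997 and 4014849 reads. In mature leaves on day 8, a read was found for 12541 to 17028 genes in Mg-deficient libraries, against 14557 genes in control replicate 1 and only 7907, 6908 and 9697 genes in control replicates 2, 3 and 4. In expanding leaves on day 5, Mg-deficient replicate 1 had 12656 such genes and the other two had 16654 and 15948. On day 8 the Mg-deficient expanding leaves had 18422 to 18718 such genes and the control ones 12275 to 15172. The labelled tissues carried their markers: the 6 photosynthetic leaf markers summed to between 6252 and 50450.4 RPM (reads recovered from the deposited values, scaled to equal depth) over all leaf libraries and to 345.8 at most in roots, whereas the 6 root markers summed to 2214 or more in roots and to 22.0 at most in leaves.

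Of the 70 combinations of gene and table, 45 reached the mean normalised count of 5 required for a test, 13 were listed below it and 12 were not listed. The mean was taken over both treatments, and 13 of the 45 passed through their Mg-deficient libraries alone, with a control mean below 5, and had to differ upwards: SAG29, ORE1, NAP and JUB1 in mature leaves on day 8, SAG13 in expanding leaves on each day, NAP and JUB1 there on days 5 and 8, and SAG29 and ORE1 there on day 8. NAP, ORS1 and JUB1 in mature leaves on day 5 passed through their control libraries alone. The counts of called genes below include these and are a description. Whether the treatments overlapped is likewise a description, as the share of all genes without overlap was not counted. A fold change below is that of Mg-deficient over control plants on the scale of log2(normalised count + 1), with its standard error (SE). It was tested with limma, and a gene counted as called where its p-value, adjusted by the Benjamini-Hochberg method across the whole table, was under 0.05. Counts were normalised within each table, so that levels were compared only within a tissue and day, except where RPM are named.

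SAG13, SAG14 and SAG21 behaved alike in expanding leaves, with a small difference on day 3 and a very large one on days 5 and 8. SAG13 (AT2G29350, chromosome 2, 12600914 to 12602556, plus strand, 4 exons) encodes a short-chain dehydrogenase that is used as an early senescence and stress marker. SAG14 (AT5G20230, chromosome 5, 6826365 to 6827748, plus strand, 2 exons) encodes a blue copper-binding protein that also responds to oxidative stress. SAG21 (AT4G02380, chromosome 4, 1046042 to 1047105, minus strand, 2 exons) encodes LEA5, a small mitochondrial protein of the late embryogenesis abundant group linked to tolerance of reactive oxygen. The SAG21 gene overlaps AT4G04125, and the part of this overlap in the SAG21 counts was not tested. Positions are those of the RefSeq annotation of assembly TAIR10.1.

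On day 3, SAG21 in expanding leaves had normalised counts of 496, 234, 237 and 277 in Mg-deficient plants, against 39.8, 139, 108, 132 and 150.5 in control plants. Every Mg-deficient replicate lay above every control replicate. The log2 fold change was 1.50 ± 0.30 (SE, limma adjusted p = 0.0403), and SAG21 was the only 1 of the 4 genes tested to be called, where 0.17% of all genes were called higher and 0.0589% lower. The call was lost without Mg-deficient replicate 1, 2 or 3 or control replicate 3, with adjusted p between 0.0716 and 0.241 in these 4 fits.

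For SAG14 the same leaves on day 3 had normalised counts of 61.4, 73.2, 53.9 and 71.3 in Mg-deficient plants and 8.72, 32.2, 15.7, 35.8 and 10.5 in control plants. These groups did not overlap either, and the log2 fold change of 1.81 ± 0.40 just missed the threshold (limma adjusted p = 0.0556). It passed without control replicate 2 or control replicate 4 (limma adjusted p = 0.04 and 0.0382). SAG13 had 17.9, 16.2, 11.9 and 17.3 in Mg-deficient plants, against 0.267, 9.52, 6.88, 4.96 and 1.76 in control plants, again without overlap, with a log2 fold change of 1.91 ± 0.69 (limma adjusted p = 0.441).

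On day 5 the same genes in expanding leaves differed 329-fold for SAG13, 125-fold for SAG14 and 153-fold for SAG21 on the scale of normalised count + 1. SAG13 had normalised counts of 1141, 331 and 331 in Mg-deficient plants, and 0.0133, 0, 0, 0.989 and 3.08 in control plants, where at most 3 reads were found in any replicate. SAG14 had 2167, 1101 and 1100.2 in Mg-deficient plants, against 5.5, 9.36, 14.3, 12.9 and 10.4 in control plants. SAG21 had 5643, 4989 and 4499 in Mg-deficient plants, against 27.1, 29.8, 10.1, 47.5 and 80 in control plants. None of the 3 genes overlapped between treatments, and the Mg-deficient replicates of SAG21 differed from each other by far less than from any control. The log2 fold changes were 8.36 ± 0.68 for SAG13, 6.97 ± 0.36 for SAG14 and 7.26 ± 0.51 for SAG21 (limma adjusted p = 2.53e-05, 2.51e-06 and 9.17e-06).

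Of the 6 genes tested on day 5 in expanding leaves, 4 rose (these 3 and JUB1) and 1 fell (SAG20), where 13.7% of all genes were called higher and 14.8% lower. All 5 of these calls were kept in every leave-one-out fit. Of the 6 photosynthetic leaf markers, CA1 and HCEF1 fell by 1.99 and 2.11 on the log2 scale and LHCB3 rose by 0.75, and their summed level was 19559 to 45301 RPM in Mg-deficient libraries, against 32348 to 48100.1 RPM in control libraries. The part of this in the results was not tested. The 10 genes together took 0.279% to 0.519% of all reads in Mg-deficient libraries, against 0.00741% to 0.0113% in control libraries.

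On day 8 the 3 genes remained as far apart. SAG13 in expanding leaves had 1473, 1051, 674, 1147 and 1543 in Mg-deficient plants, against 0.0926, 0, 14.3 and 1.55 in control plants. SAG14 had 1724, 1274, 817, 1452 and 1259.9 in Mg-deficient plants, against 9.15, 44.3, 0.328 and 3.32 in control plants. SAG21 had 10551, 5360.5, 6645, 6985 and 7779.9 in Mg-deficient plants, against 0.365, 105, 1.73 and 24.0 in control plants. The lowest Mg-deficient value was above the highest control value by a wide margin for each gene, while the control values of SAG21 were themselves widely spread. The log2 fold changes were 8.79 ± 0.67 for SAG13, 7.47 ± 0.75 for SAG14 and 9.51 ± 0.97 for SAG21 (limma adjusted p = 1.06e-06, 8.12e-06 and 9.53e-06).

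Of the 8 genes tested on day 8 in expanding leaves, 6 rose and 1 fell, where 30.8% of all genes were called higher and 14.9% lower. Each of the 7 calls except that of ORE1 was kept in every leave-one-out fit. All 6 photosynthetic leaf markers fell in the same comparison, and their summed level was 6252 to 11730 RPM in Mg-deficient libraries, against 34929 to 38981 in control libraries. CA1, a carbonic anhydrase of mesophyll chloroplasts, fell by 4.67 on the log2 scale. The part of this shift in the results above was not tested, and in these tissue composites a change in the share of a cell type cannot be told apart from a change in RNA per cell.

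**Figure D1:**
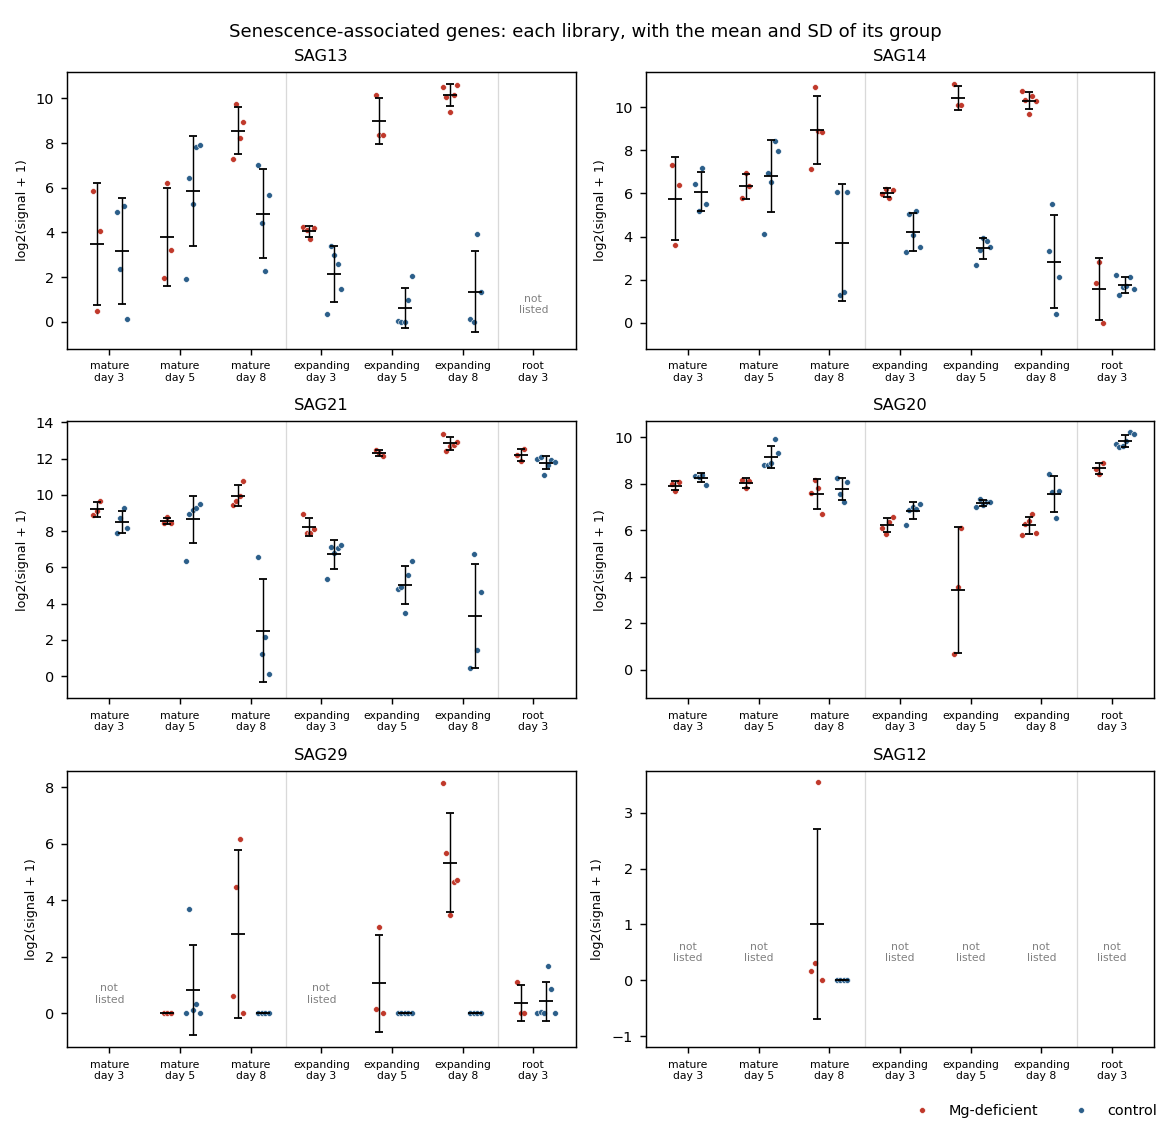
Normalised counts of the 6 senescence-associated genes, as log2(normalised count + 1), in each of the 58 libraries by tissue and day. Points are libraries, Mg-deficient left of control, and bars are the mean and SD of the group. SAG13, SAG14 and SAG21 separate the treatments completely in expanding leaves on all 3 days and in mature leaves on day 8, whereas SAG20 lies lower in Mg-deficient roots and expanding leaves.

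In mature leaves the same 3 genes differed little at first and strongly on day 8. On day 5, SAG13 had 2.85, 74.2 and 8.36 in Mg-deficient plants, against 2.82, 84.4, 37.1, 223 and 237 in control plants, and SAG21 had 352, 436 and 345 in Mg-deficient plants, against 81.9, 491, 566, 622 and 727 in control plants. Both genes overlapped between treatments, with log2 fold changes of -2.06 ± 1.08 and -0.10 ± 0.49 (limma adjusted p = 0.734 and 0.979). On day 3, the log2 fold changes were 0.32 ± 1.25 for SAG13, -0.32 ± 0.65 for SAG14 and 0.69 ± 0.29 for SAG21, and none was called.

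In this tissue none of the 5 genes tested on day 3 was called, nor any of the 8 tested on day 5, where 0% of all genes were called higher and 0% lower on either day. At an unadjusted p under 0.05, limma gave 493 of 15079 genes on day 3 and 1060 of 15243 on day 5. The edgeR quasi-likelihood test on recovered reads called 0 genes on either day, and the edgeR exact test called 1 gene on day 3, and 8 higher and 12 lower on day 5.

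On day 8, SAG21 in mature leaves had 689, 811, 972 and 1737 in Mg-deficient plants, against 94.7, 1.31, 3.44 and 0.0802 in control plants. SAG14 had 139, 1977, 472 and 459 in Mg-deficient plants, against 65.8, 1.48, 1.69 and 65.6 in control plants. SAG13 had 156, 852, 299 and 498 in Mg-deficient plants, against 127, 20.2, 3.89 and 50.4 in control plants. Every Mg-deficient replicate was above every control replicate for each of the 3 genes, a separation that was not counted over all genes. For SAG13 and SAG21 the highest control was replicate 1, the only library of the group with a full range of genes. The log2 fold changes were 7.44 ± 0.87 for SAG21, 5.24 ± 0.90 for SAG14 and 3.71 ± 0.72 for SAG13 (limma adjusted p = 7.79e-06, 0.00186 and 0.00494). The SAG13 call was lost with voom on recovered reads.

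Of the 9 genes tested in mature leaves on day 8, 5 rose (SAG13, SAG14, SAG21, ORE1 and NAP) and 0 fell, where 3.43% of all genes were called higher and 0.173% lower. Called genes numbered 457 higher and 23 lower as deposited, but 238 higher and 129 lower after rescaling by the median of ratios, and the median log2 ratio of the whole table was 0.91 as deposited and -0.12 after rescaling. Since 3 of the 4 control libraries had a read for few genes, the comparison was repeated with control replicate 1 as the only control, a choice made after seeing the data. The log2 fold changes were then 3.37 for SAG21, 2.89 for SAG14 and 1.55 for SAG13, and 0 of the 9 genes passed (limma adjusted p = 0.179, 0.515 and 0.663 for these 3), with 0 genes called in all and 1117 genes at an unadjusted p under 0.05. That fit takes the single control library to vary as the Mg-deficient ones do.

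The upstream sequences of the genes that moved together in expanding leaves are given so that their shared and differing letters can be seen. Each is the 250 bases before the annotated start of the gene, 5′ to 3′ on the strand of the gene in TAIR10.1. Capitals mark TTGAC, the core of the W-box bound by WRKY factors, or its reverse complement GTCAA.
SAG13 (chr2:12600664-12600913, plus strand): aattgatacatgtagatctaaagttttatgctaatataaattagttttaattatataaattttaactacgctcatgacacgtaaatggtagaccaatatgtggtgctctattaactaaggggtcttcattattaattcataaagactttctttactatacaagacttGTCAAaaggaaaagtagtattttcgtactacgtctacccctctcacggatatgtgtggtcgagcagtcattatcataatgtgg
SAG14 (chr5:6826115-6826364, plus strand): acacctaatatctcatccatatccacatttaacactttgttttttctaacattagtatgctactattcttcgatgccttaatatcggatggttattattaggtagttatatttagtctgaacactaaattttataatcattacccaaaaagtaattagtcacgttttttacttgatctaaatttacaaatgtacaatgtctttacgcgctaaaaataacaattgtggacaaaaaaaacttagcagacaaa
SAG21 (chr4:1047106-1047355, minus strand): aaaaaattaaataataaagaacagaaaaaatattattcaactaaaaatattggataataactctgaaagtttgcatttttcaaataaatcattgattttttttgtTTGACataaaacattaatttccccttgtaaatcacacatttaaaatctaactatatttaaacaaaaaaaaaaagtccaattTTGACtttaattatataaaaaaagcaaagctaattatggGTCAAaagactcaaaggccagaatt
JUB1 (chr2:17882637-17882886, minus strand): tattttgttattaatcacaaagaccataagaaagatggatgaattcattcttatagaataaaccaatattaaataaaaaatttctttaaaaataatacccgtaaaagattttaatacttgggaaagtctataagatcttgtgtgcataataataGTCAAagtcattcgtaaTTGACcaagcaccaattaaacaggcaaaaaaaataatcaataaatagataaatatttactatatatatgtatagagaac
The core was present 1 time in the SAG13 window, 3 times in that of SAG21, 2 times in that of JUB1 and 0 times in that of SAG14. On either strand it is also found in 44.9% of the 27438 windows of this length before protein-coding genes, so that a match is a description of the sequence and not evidence of a binding site. SAG20, which fell, held it 2 times. None of the 10 windows held TGACG, the core bound by TGA factors (18.6% of all windows), or the mitochondrial dysfunction element (1.75%), both searched on either strand. TTGACG would count for TTGAC and for TGACG.

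SAG20 moved the other way. SAG20 (AT3G10985, chromosome 3, 3442237 to 3443680, plus strand, 1 exon) encodes WI12, a protein named for its induction by wounding. In roots on day 3 it had normalised counts of 397, 344 and 478 in Mg-deficient plants, against a lowest value of 761, a median of 868 and a highest value of 1176 in the 6 control replicates. The groups did not overlap, and the log2 fold change was -1.18 ± 0.15 (limma adjusted p = 0.000101). It was the only 1 of the 5 genes tested in roots to be called, where 0.0887% of all genes were called higher and 0.112% lower, and its call was kept in every leave-one-out fit.

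In expanding leaves on day 5, SAG20 had 0.595, 10.8 and 66.5 in Mg-deficient plants, against 125, 163, 135, 146 and 146 in control plants. All Mg-deficient values were lower, but they were widely spread while the control values were close together. The log2 fold change was -3.73 ± 0.89 (limma adjusted p = 0.0118). It was -2.35 without Mg-deficient replicate 1, the library with few genes in this group, and -5.05 without Mg-deficient replicate 3, and it stayed called in both fits. On day 8, SAG20 had 55.0, 75.7, 84.1, 101 and 58.7 in Mg-deficient plants, against 339, 196, 91.5 and 207 in control plants. Mg-deficient replicate 4 exceeded control replicate 3, so that the groups touched, and the log2 fold change was -1.36 ± 0.35 (limma adjusted p = 0.00743) at a median over all genes of 0.63.

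SAG20 in mature leaves on day 5 had 287, 221 and 275 in Mg-deficient plants, against 450.2, 444, 471, 968 and 628 in control plants. All Mg-deficient values were below all control values, yet the log2 fold change of -1.12 ± 0.26 did not pass over all genes (limma adjusted p = 0.44), except without control replicate 1, where the adjusted p was 0.049987. Its log2 fold changes in mature leaves on days 3 and 8 and in expanding leaves on day 3 were -0.34 ± 0.23, -0.22 ± 0.45 and -0.62 ± 0.24, none of them called.

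SAG21 in roots had 4719, 3751 and 5856 in Mg-deficient plants, against a lowest value of 2202, a median of 3700.4 and a highest value of 4408 in control plants. Mg-deficient replicate 2 lay inside the control range, and the log2 fold change of 0.43 ± 0.18 was not called (limma adjusted p = 0.356). Root levels were high under both treatments: the median was 2353 RPM in Mg-deficient roots and 1774 in control roots, against 135 in Mg-deficient and 67.8 in control expanding leaves of the same day. SAG14 stayed at 8 reads or fewer in each root library and SAG13 was not listed in roots.

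SAG29 rose in expanding leaves on day 8. SAG29 (AT5G13170, chromosome 5, 4181042 to 4183354, minus strand, 6 exons) encodes SWEET15, a sucrose transporter of the plasma membrane. In expanding leaves on day 8 it had 282, 50, 14, 28 and 29 reads in Mg-deficient replicates, against 0 reads in each of the 4 control replicates. The groups did not overlap, and Mg-deficient replicate 1 held most of the reads. The log2 fold change was 5.33 ± 0.83 (limma adjusted p = 0.000223), and with 3 reads over all control libraries as the floor the level was at least 76.7-fold higher in Mg-deficient plants, or at least 28.4-fold without Mg-deficient replicate 1. In mature leaves on day 8 it had 0, 14, 109 and 0 reads in Mg-deficient replicates, against 0 in every control replicate, and the difference was not called (limma adjusted p = 0.148). On day 5 in expanding leaves, Mg-deficient replicate 2 alone had reads, 7 in number, and the gene was under the mean count required. The gene was not confined to Mg-deficient plants, since in mature leaves on day 5 control replicate 2 had 12 reads. Every other library of that comparison, Mg-deficient or control, had 0 reads.

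SWEET11 and SWEET12 are clade III SWEET transporters that export sucrose from phloem parenchyma. Of the 4 further clade III genes looked up here, these 2 were tested. In expanding leaves on day 8, where 14.9% of all genes were called lower, SWEET12 and SWEET11 fell by 3.38 ± 0.40 and 1.40 ± 0.24 on the log2 scale (limma adjusted p = 2.51e-05 and 0.00049). The 6 vascular markers summed to 90.8 to 131 RPM in Mg-deficient libraries, against 212 to 325 RPM in control libraries, 1 of the 5 tested was called lower (SUC2, a phloem sucrose transporter, by 1.49), and the part of this in the SWEET values was not tested. SWEET12 also fell on day 5, by 1.24 ± 0.25 (limma adjusted p = 0.00549).

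SAG12 (AT5G45890, chromosome 5, 18613239 to 18614963, plus strand, 3 exons), which encodes a cysteine protease and is the marker most closely tied to developmental leaf senescence, was barely seen. It was listed only in mature leaves on day 8, where Mg-deficient replicate 3 had 15 reads and each of the other 7 libraries had 0. Its mean was under 5, so that it was not tested. The same replicate held the most reads of SAG29 and of NAP in that comparison.

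Few reads fell on the NAC regulators, at most 139 in any library for any of the 4 genes. JUB1 (AT2G43000, ANAC042, chromosome 2, 17880457 to 17882636, minus strand, 3 exons) had 1, 26 and 23 reads in Mg-deficient expanding leaves on day 5, against 0 reads in each of the 5 control replicates. On day 8 it had 59, 15, 28, 29 and 47 reads in Mg-deficient plants, against 0 reads in each of the 4 control replicates. The treatments did not overlap on either day. The log2 fold changes were 3.62 ± 0.79 and 4.91 ± 0.58 (limma adjusted p = 0.00795 and 2.57e-05), and against the same floor the level was at least 32.3-fold higher on day 5 and at least 33.9-fold higher on day 8.

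JUB1 in mature leaves on day 8 had 6, 43, 10 and 48 reads in Mg-deficient plants, against 6, 0, 0 and 0 reads in control plants, with a log2 fold change of 3.34 ± 1.20 that was not called (limma adjusted p = 0.114). It passed only without control replicate 1, where the adjusted p was 0.0301. The gene overlaps the end of AT2G42990, which lies on the opposite strand and was listed in no table. The libraries were strand-specific, but whether the counting used the strand is not given in the sources used here.

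ORE1 (AT5G39610, ANAC092, chromosome 5, 15858398 to 15859911, minus strand, 3 exons), a central activator of age-dependent senescence, rose on day 8 in both leaf types. In expanding leaves it had normalised counts of 40.0, 28.9, 5.59, 14.7 and 41.4 in Mg-deficient plants, against 10.9, 0, 0.131 and 6.29 in control plants. The groups overlapped at Mg-deficient replicate 3, and the log2 fold change was 2.82 ± 0.89 (limma adjusted p = 0.0207). The adjusted p was between 0.053 and 0.0554 without Mg-deficient replicate 1 or 5 or control replicate 2 or 3.

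ORE1 in mature leaves on day 8 had 6.96, 119.9, 71.4 and 35.3 in Mg-deficient plants, against 6.96, 0.203, 0.228 and 0.0142 in control plants. Mg-deficient replicate 1 and control replicate 1 were level, and only control replicate 1 had reads, 9 in number. The log2 fold change of 4.42 ± 1.28 was barely past the threshold (limma adjusted p = 0.0481) and was not past it without any one of the 4 Mg-deficient replicates or of control replicates 2, 3 and 4, with adjusted p between 0.0533 and 0.169. ORE1 was not called in mature leaves on day 3 or 5 or in roots (log2 fold changes of -0.52 ± 0.61, -0.70 ± 0.51 and 0.83 ± 0.49) and was not listed in expanding leaves on day 3.

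ORE1 transcripts are cleaved in young leaves under the guidance of the microRNA miR164, and the pair is shown because it distinguishes ORE1 from the other NAC regulators. The mature miR164a is printed with its seed (bases 2 to 8) in capitals, and the ORE1 site, in the coding sequence, with capitals at the bases that pair with it.
miR164a (chr2:19520770-19520790, plus strand): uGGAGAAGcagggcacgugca
ORE1 site (chr5:15858797-15858817, minus strand): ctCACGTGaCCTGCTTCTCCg
Over the 21 bases the ORE1 site had 4 mismatches, counting G-U pairs as mismatches. The closest window had 6 mismatches in ORS1 and 9 in NAP and in JUB1. None of the 3 MIR164 loci reached the mean count required for a test in any table, and the level of mature miR164 was not measured here.

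NAP (AT1G69490, ANAC029, chromosome 1, 26122080 to 26123514, plus strand, 3 exons), which activates abscisic acid and chlorophyll breakdown genes in ageing leaves, had 14, 8, 83 and 30 reads in Mg-deficient mature leaves on day 8, against 0 reads in each of the 4 control replicates. The groups did not overlap, the log2 fold change was 4.44 ± 1.10 (limma adjusted p = 0.0262), and the level was at least 30.1-fold higher against 3 reads over the control libraries. This bound was 17.6-fold without Mg-deficient replicate 3 and 17.2-fold without control replicate 1. The call was lost without Mg-deficient replicate 3 or 4 or control replicate 2 or 3, with adjusted p between 0.0672 and 0.0745. In expanding leaves on day 5 its 3 Mg-deficient replicates had 139, 11 and 1 reads, against 1, 1, 0, 2 and 2 reads in control plants, and on day 8 they had 7, 2, 2, 10 and 17 reads, against 0, 0, 0 and 9 reads in control plants. The groups overlapped on both days, with log2 fold changes of 2.97 ± 1.19 and 1.68 ± 0.87 (limma adjusted p = 0.0821 and 0.132). NAP passed without Mg-deficient replicate 3 on day 5 (limma adjusted p = 0.00758) and without control replicate 4 on day 8 (limma adjusted p = 0.016).

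ORS1 (AT3G29035, ANAC059, chromosome 3, 11033665 to 11035308, plus strand, 3 exons), the closest relative of ORE1 in this set and also an activator of senescence, was called in no table. In mature leaves on day 8 it had 3, 8, 3 and 18 reads in Mg-deficient plants, against 17, 0, 33 and 123 reads in control plants, with a log2 fold change of -1.80 ± 1.3 (limma adjusted p = 0.451). The 2 highest values were thus those of control replicates 3 and 4. In roots it had 14.0, 30.5 and 15.7 in Mg-deficient plants, against a median of 20.5 in control plants, with a log2 fold change of -0.23 ± 0.33. In expanding leaves it had at most 11 reads in any library and was under the mean count required on days 5 and 8.

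**Figure D2:**
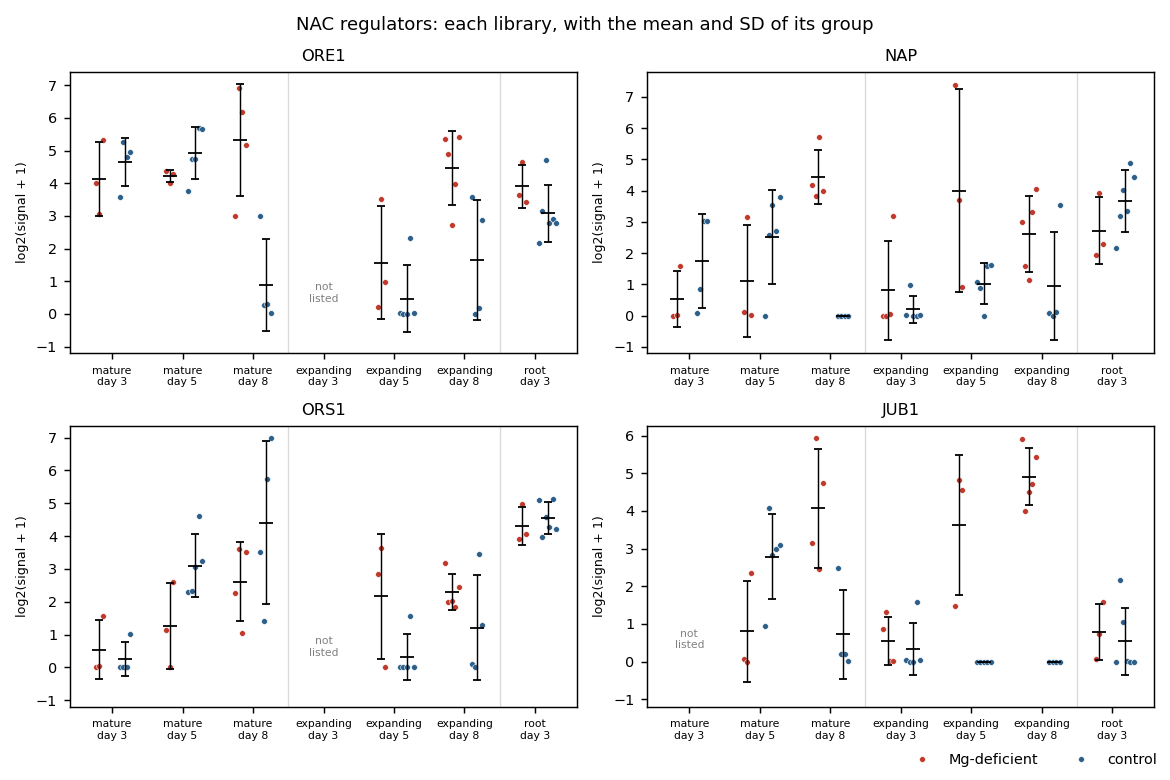
Normalised counts of the 4 NAC regulators, as log2(normalised count + 1), in each library by tissue and day. Points are libraries, Mg-deficient left of control, and bars are the mean and SD of the group. JUB1 is at 0 in every control library of expanding leaves on days 5 and 8 and above 0 in every Mg-deficient one, while ORS1 overlaps everywhere.

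The response was then compared between leaf types and days by testing the difference of 2 log2 fold changes, with p-values adjusted over all genes tested in both tables. The test took the libraries of the 2 tables as independent, although libraries of different tissues can share plants. On day 5, 4 of the 6 genes compared responded differently in expanding and mature leaves, where 20.8% of all genes did. The differences, expanding minus mature, were 10.42 ± 1.27 for SAG13, 7.42 ± 0.75 for SAG14, 7.36 ± 0.71 for SAG21 and 5.61 ± 1.34 for JUB1 (limma-based adjusted p = 2e-06, 1.46e-07, 1.12e-07 and 0.00436). On this day the 4 genes were higher in Mg-deficient expanding leaves but not in Mg-deficient mature leaves. NAP and SAG20 differed by 4.38 ± 1.68 and -2.61 ± 0.93 (limma-based adjusted p = 0.0622 and 0.0628). JUB1 and NAP reached the mean count required through Mg-deficient libraries alone in expanding leaves and through control libraries alone in mature leaves. The direction of their differences was thus set in advance, and the values are a description. SAG13 in expanding leaves also reached that mean through Mg-deficient libraries alone, so that its fold change there had to be upward.

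On day 8 only SAG13 of 8 genes differed, by 5.08 ± 0.99 (limma-based adjusted p = 0.000917), where 5.95% of all genes did. In expanding leaves on this day too, SAG13 reached the mean count required through Mg-deficient libraries alone. For SAG21 the difference was 2.08 ± 1.31 and for ORE1 -1.61 ± 1.56, neither called, which does not show that the leaf types responded alike. With control replicate 1 as the only control of mature leaves, SAG21 also differed, by 6.15 (limma-based adjusted p = 0.00632), and SAG13 differed by 7.24 (limma-based adjusted p = 0.00148). On day 3, 0 of 4 genes differed between leaf types, where 0% of all genes did by the adjusted test. An unadjusted p under 0.05, which chance alone gives to a share of about 0.05, was found for 697 of 14238 genes.

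Within expanding leaves the response grew between days 3 and 5 for all 4 genes compared, where 17.9% of all genes changed their response. The log2 fold change on day 5 exceeded that on day 3 by 6.45 ± 0.97 for SAG13, 5.16 ± 0.54 for SAG14 and 5.76 ± 0.59 for SAG21, and the difference for SAG20 was -3.11 ± 0.92 (limma-based adjusted p = 4.87e-05, 1.28e-07, 4.28e-06 and 0.0356). The SAG20 difference was not called without Mg-deficient replicate 2 or any 1 of the 5 control replicates of day 5. SAG13 reached the mean count required through Mg-deficient libraries alone on both days. Between days 5 and 8, 0 of 6 genes changed their response, where 16.7% of all genes did. The differences nearest to the threshold were those of SAG20 (2.38 ± 0.96, limma-based adjusted p = 0.101) and SAG21 (2.25 ± 1.10, limma-based adjusted p = 0.159).

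Within mature leaves the response grew between days 5 and 8 for 5 of 8 genes, where 2.13% of all genes changed theirs. Of these 5, NAP reached the mean count required through Mg-deficient libraries alone on day 8 and through control libraries alone on day 5. The direction of its difference was thus set in advance. On day 8 ORE1 also reached that mean through Mg-deficient libraries alone. The differences were 7.53 ± 1 for SAG21, 5.69 ± 1.11 for SAG14, 5.77 ± 1.3 for SAG13, 5.12 ± 1.38 for ORE1 and 5.85 ± 1.62 for NAP (limma-based adjusted p = 1.92e-05, 0.00361, 0.0142, 0.0384 and 0.0446). Those of SAG13, ORE1 and NAP depended on single libraries, and with control replicate 1 as the only control on day 8 none of the 5 passed, SAG21 coming nearest (3.46, adjusted p = 0.0672). Between days 3 and 5, 0 of 5 genes changed their response in mature leaves, where 0% of all genes did and 827 of 14453 had an unadjusted p under 0.05. The root response differed from that of expanding leaves in 0 of 2 genes compared, where 0.0073% of all genes differed, and from that of mature leaves in 0 of 3, where 0% did and 649 of 13450 genes had an unadjusted p under 0.05. The SAG21 response was smaller in roots than in expanding leaves on day 3 by an amount that was not called (-1.07 ± 0.35, limma-based adjusted p = 0.704).

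**Figure D3:**
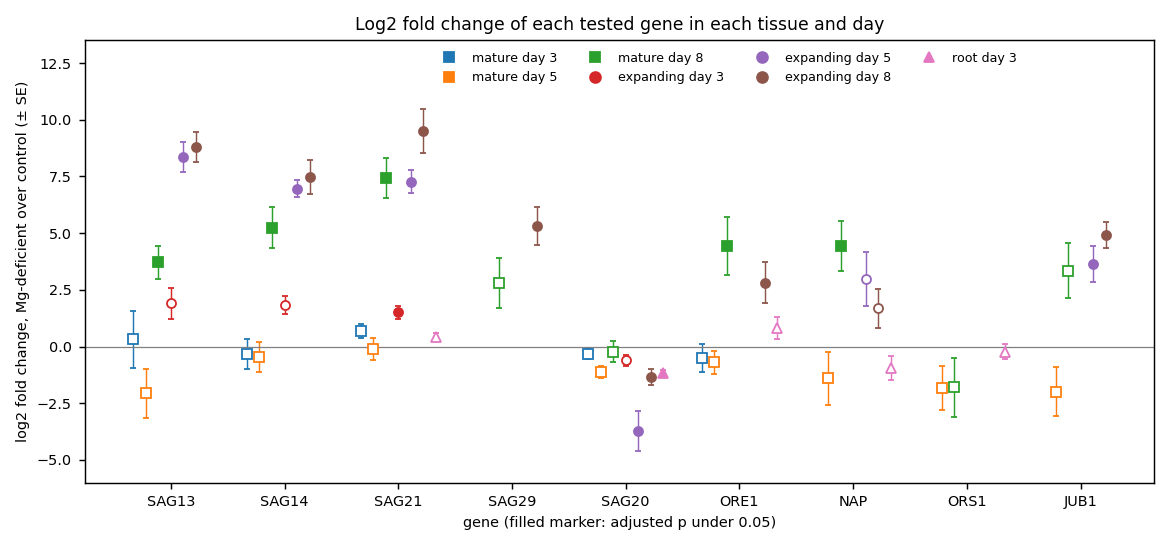
Log2 fold change of Mg-deficient over control plants, with its SE, for each gene tested in each tissue and day. Filled markers passed the threshold and open ones did not. SAG13, SAG14 and SAG21 lie between 6.97 and 9.51 in expanding leaves on days 5 and 8, JUB1 at 3.62 and 4.91, and SAG20 at -3.73 and -1.36.

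Other genes of the senescence programme were listed by role to place these values, with all-gene shares in expanding leaves of 13.7% higher and 14.8% lower on day 5 and of 30.8% and 14.9% on day 8. Some list genes had 0 reads in every control library, and for these a bound against 3 reads over the control libraries is given in place of a fold change. These and other list genes with a control mean below 5 reached the mean count required through Mg-deficient libraries alone. They had to differ upwards. The list counts and medians below include such genes and are a description. Of 18 further NAC factors tied to senescence, 16 were tested in expanding leaves, and 10 rose and 0 fell on day 5, where 13.7% of all genes rose, with a median log2 fold change of 2.58 against -0.34 over all genes. On day 8, 13 rose and 0 fell, where 30.8% of all genes rose, with a median of 3.06 against 0.63. NAC087, a factor tied to cell death in Arabidopsis, rose by 7.34 ± 0.58 on day 5 (limma adjusted p = 2.39e-05) and was at least 559-fold higher on day 8 (limma adjusted p = 2.45e-08). ATAF2 and NAC102, of the stress-responsive ATAF group, rose by 3.35 ± 0.25 and 2.71 ± 0.21 on day 5, and NAC090 and NAC016 were at least 110.4-fold and 42.8-fold higher on day 8.

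Among the WRKY and hormone factors of senescence, 6 of 15 tested genes rose and 0 fell in expanding leaves of day 5, while 11 of 18 rose with 1 lower on day 8, where all-gene shares were 13.7% higher and 14.8% lower on day 5 and 30.8% and 14.9% on day 8. WRKY55, WRKY70 and WRKY53, which act in salicylic acid signalling and senescence, rose by 5.09 ± 0.57, 1.89 ± 0.31 and 2.68 ± 0.52 on day 5. On day 8 WRKY75 and WRKY45 were at least 136-fold and 49.3-fold higher, and WRKY6 rose by 5.29 ± 0.64. PIF4, a light-signalling factor that promotes dark-induced senescence, fell by 2.06 ± 0.35 on day 8.

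Among 18 other SAG, SEN and DIN genes, 6 of 11 tested rose and 1 fell on day 5, against 9 and 1 of 13 tested on day 8, beside the same all-gene shares of 13.7% and 14.8% on day 5 and 30.8% and 14.9% on day 8. SEN4, a xyloglucan-modifying cell wall enzyme, rose by 4.69 ± 0.54 and by 3.51 ± 0.30 on these days. YLS9, which is also a pathogen-response gene, was at least 106-fold higher on day 8, and SAG101, a partner of the immune regulator EDS1, rose by 2.02 ± 0.31 on day 5. DIN10, a gene induced by darkness and sugar starvation, fell by 2.67 ± 0.82 on day 5 and by 2.32 ± 0.77 on day 8.

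Among nutrient recycling enzymes, 3 of 18 tested rose and 3 fell on day 5, close to the all-gene shares of 13.7% and 14.8%, with a median of 0.00. Of 19 tested on day 8, 8 rose and 2 fell, beside all-gene shares of 30.8% and 14.9%, with a median of 1.3 against 0.63 over all genes. GLN1-1, a cytosolic glutamine synthetase, rose by 2.46 ± 0.34 and by 2.47 ± 0.31 on these days, and PES2, a phytyl ester synthase of chloroplasts, rose by 5.24 ± 0.87 on day 5 and was at least 126-fold higher on day 8. Of the enzymes that break down chlorophyll, NYE1 rose by 2.16 ± 0.31 on day 5 and PPH by 1.67 ± 0.25 on day 8, while NYC1 fell by 0.93 ± 0.21 and 1.14 ± 0.26 and ACD2 fell by 1.34 ± 0.36 on day 5. Of the 27 autophagy genes, all tested, 5 rose and 0 fell on day 5, against 9 and 1 on day 8. ATG8a rose by 1.94 ± 0.35 and 2.16 ± 0.22 and NBR1, a receptor for protein aggregates, by 1.26 ± 0.19 on day 8, whereas ATG8f fell by 1.24 ± 0.22. The share of autophagy genes called higher was close to that of all genes on both days.

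Of 13 genes reported as targets of ORE1, NAP or JUB1, 5 of 10 tested rose and 1 fell in expanding leaves of day 5, against 6 and 2 of 9 tested on day 8, where 30.8% of all genes rose and 14.9% fell (13.7% and 14.8% on day 5). SAG113, a protein phosphatase gene activated by NAP, rose by 5.62 ± 0.71 on day 5 and 6.31 ± 0.89 on day 8, and ACS2, an ethylene synthesis gene activated by ORE1, was at least 55.6-fold and 110.4-fold higher. In these leaves ORE1 itself was under the mean count required on day 5 and rose by 2.82 ± 0.89 on day 8. NAP was called on neither day, although it passed in 3 of 18 alternative runs on day 5 and in 1 of 18 on day 8. NYC1, a chlorophyll b reductase gene also activated by ORE1, fell on both days by the values above, while NYE1 rose on day 5. DWF4, a brassinosteroid synthesis gene repressed by JUB1, fell by 1.18 ± 0.40 on day 8. Of 8 partners and regulators of ORE1, 5 were tested and 1 fell on each day, a share near the 14.8% and 14.9% of all genes called lower: GLK2, a chloroplast development factor, by 2.82 ± 0.82 on day 5 and its relative GLK1, which ORE1 binds, by 1.41 ± 0.29 on day 8. GLK1 is also a leaf marker that the shift described above includes.

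In mature leaves on day 8, where 3.43% of all genes were called higher, 1 of 17 tested NAC factors rose. So did 2 of 14 WRKY and hormone factors, 3 of 15 SAG, SEN and DIN genes, 0 of 18 recycling enzymes and 0 of 27 autophagy genes. The called genes were NAC087 (4.29 ± 1.24), WRKY53 (4.16 ± 1.22), WRKY70 (1.98 ± 0.58), SAG113 (4.86 ± 1.20), YLS9 (at least 52.4-fold) and SIRK (at least 15.8-fold), a receptor kinase gene under WRKY6, with limma adjusted p between 0.0262 and 0.04998. WRKY53, YLS9 and SIRK reached the mean count required through Mg-deficient libraries alone. Median log2 fold changes of the lists were 2.63 for the NAC factors, 1.76 for the WRKY and hormone factors, 1.65 for the SAG, SEN and DIN genes, 1.14 for recycling and 1.55 for autophagy, against 0.91 over all genes. No gene of these lists was called in mature leaves on day 3 or 5, in expanding leaves on day 3 or in roots. Few genes were called there in all: 0% in mature leaves on either day, 0.17% higher and 0.0589% lower in expanding leaves, and 0.0887% and 0.112% in roots.

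**Figure D4:**
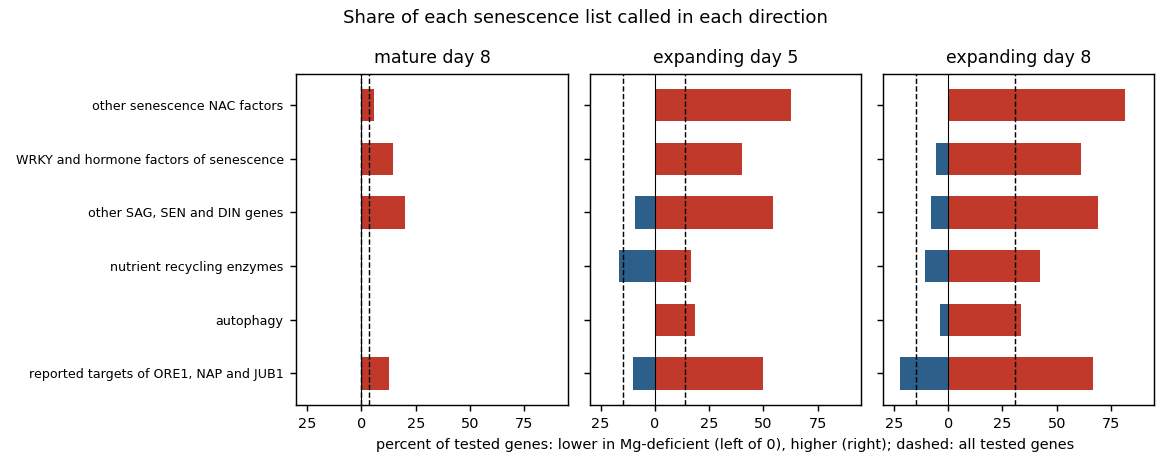
Percent of the tested genes of 6 lists, which leave out the 10 genes themselves, that were called lower (left of 0) or higher (right of 0) in Mg-deficient plants, in mature leaves on day 8 and in expanding leaves on days 5 and 8. Dashed lines are the percent of all tested genes called. Of these 6 lists, the NAC factors reach furthest to the right in expanding leaves, at 10 of 16 and 13 of 16 genes, and those for autophagy end near the dashed line.

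Only SAG20 and SAG21 were tested in all 7 tables, and the genes of most similar response were sought for them among 11145 genes by Euclidean distance over the 7 log2 fold changes. For SAG21 these were AT4G08555 (distance 2.64) and WRKY51 (distance 2.66), a WRKY factor of defence signalling. AT4G08555 had log2 fold changes of 8.73 and 9.90 in expanding leaves on days 5 and 8 and 6.17 in mature leaves on day 8, and WRKY51 had 6.35, 7.78 and 5.78. For SAG20 they were ASG5 (distance 0.91), with -3.41 in expanding leaves on day 5 and -1.40 in roots, and PHT2;1 (distance 1.37), a phosphate transporter of chloroplasts, with -3.09 and -0.60. ASG5 and PHT2;1 fell past the threshold in expanding leaves on day 5 (limma adjusted p = 0.00202 and 0.0346).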

How the data were processed

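RNA-seq libraries of mature leaves, expanding leaves and roots were sequenced by the authors as strand-specific 50-base single-end reads. Each deposited table holds a signal per locus and library, which is the read count after the authors adjusted all libraries of a table to a common library size. Per the submitters' processing notes, TAIR10 and R 3.5.0 were used. The 7 tables were adjusted separately and were tested separately.

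Log2(signal + 1) was fitted with limma 3.58.1 (R 4.3.3) with a trended prior for genes of mean signal 5 or more, Mg-deficient against control, with Benjamini-Hochberg adjustment over all genes of the table. Differences between tables were tested as the difference of 2 log2 fold changes over the root of their summed squared SEs, with Welch-Satterthwaite degrees of freedom, in 9 contrasts. Whole reads were recovered by undoing the adjustment at a dispersion of 0.05, and between 98.53% and 100% of the values of a library came out as whole reads that return the deposited signal to a relative tolerance of 0.001 (absolute below a signal of 1). RPM values and the edgeR 4.0.16 alternatives use these reads. Scripts were tested on simulated data.

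The 10 genes were named by locus, and in each list and table the genes named were taken from the up to 3 called genes per direction with the smallest p. The members and lists were chosen with earlier results of these data known. Alternatives were pseudocounts of 0.25 and 5, no filter and a filter of 20, median of ratios scaling, array weights, voom, a replicate block and leaving out each library. The edgeR tests and the use of control replicate 1 alone in mature leaves on day 8 were chosen after seeing the data. Gene models and sequences come from RefSeq's TAIR10.1, in which the 10 loci were matched by locus tag. P-values measure the spread between composites of plants.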

Additional observations from a re-analysis of the deposited data

Results flagged for a closer look

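In 10 of 61 groups of 4 to 6 libraries, 1 library lay far from the others. The cut-offs used for this give about 1 in 20 by chance only where values are normally distributed. They were applied to normalised counts without logs, and several of these groups had few or no reads in most libraries. The chance rate is thus not known here, and the 10 groups are a description. Control replicate 1 of mature leaves on day 8 stood apart for SAG21 (94.7), ORE1 (6.96) and JUB1 (4.64), and Mg-deficient replicate 3 for NAP (52.1), all as normalised counts. Control replicate 4 stood apart for ORS1 in mature leaves on day 5 (23.5). In expanding leaves these were Mg-deficient replicate 1 for SAG21 on day 3 (496), and on day 8 Mg-deficient replicate 1 for SAG29 (282), control replicate 3 for SAG13 (14.3) and control replicate 4 for NAP (10.5). In roots control replicate 3 stood apart for ORE1 (25.4).

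Of 46 differences of response between tissues or days, 14 passed the threshold. Expanding minus mature leaves on day 5 gave 10.42 for SAG13, 7.42 for SAG14, 7.36 for SAG21 and 5.61 for JUB1 on the log2 scale, and on day 8 gave 5.08 for SAG13. Day 5 minus day 3 in expanding leaves gave 6.45 for SAG13, 5.16 for SAG14, 5.76 for SAG21 and -3.11 for SAG20. Day 8 minus day 5 in mature leaves gave 5.77 for SAG13, 5.69 for SAG14, 7.53 for SAG21, 5.12 for ORE1 and 5.85 for NAP. The last 5 rest on the mature leaf controls of day 8, of which 3 had reads for few genes. For JUB1 between leaf types and NAP between days, the mean count required for a test set the direction. For SAG13 that mean set the direction of the fold change in expanding leaves, and for ORE1 that in mature leaves on day 8.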

How the results depend on the processing

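Over 91 tests of single genes, 674 of 724 values under other settings kept their side of the threshold, 33 fell below it and 17 passed it. Of 1125 values with 1 library left out, 1064 kept their side. Direction changed in 0 values where either fit was called. A value called in neither fit counted as kept even where its direction changed. SAG13 in mature leaves on day 3 was such a case (0.32, but -0.87 without Mg-deficient replicate 1). SAG13, SAG14, SAG21 and SAG20 in expanding leaves on days 5 and 8, and SAG29 and JUB1 there on day 8, were called in every alternative run. In mature leaves on day 8 the 5 genes called higher were 3 with a filter of 20, 3 with the edgeR quasi-likelihood test, 3 with the edgeR exact test and 0 with control replicate 1 alone, and 3 to 6 with 1 library left out. In expanding leaves on day 3 the 1 gene called higher became 0 with a pseudocount of 0.25 or a filter of 20, and 2 with a pseudocount of 5, no filter, array weights, voom, the edgeR exact test or the replicate block, and 0 to 2 with 1 library left out; array weights also called 1 gene lower. In mature leaves on day 5, 0 to 1 gene was called lower with 1 library left out. Between days 8 and 5 in mature leaves, 5 differences became 3 with a filter of 20 or voom, 2 with median of ratios scaling and 0 with control replicate 1 alone, and 3 to 6 with 1 library left out. In expanding leaves between days 8 and 5, 0 became 1 with array weights, and 0 to 1 with 1 library left out. Between leaf types on day 8, 1 became 2 with control replicate 1 alone. The cause was not tested. Equal replicate numbers did not pair samples (1 of 24 correlations of deviations was above 0.1). The replicate block also left out each library whose replicate number occurred in 1 treatment only. These included control replicates 4, 5 and 6 of roots and 4 and 5 of expanding leaves on day 5. What the block changed cannot be told apart from this loss of libraries. With the block, 0 of the 10 genes were called in roots (1 without it) and JUB1 in expanding leaves on day 5 had a limma adjusted p of 0.0785. Over all genes, calls higher and lower in expanding leaves on day 5 were 2132 and 2297, against 2413 and 2144 with median of ratios scaling and 844 and 314 with the block. SAG12 had reads in 1 library, so that depth limits what can be said of it.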
